A study of Homo sapiens with 4 samples.

Results

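ATF4 is the transcription factor at the end of the integrated stress response. When one of the kinases that sense unfolded protein, missing amino acids, double-stranded RNA or missing heme phosphorylates eIF2-alpha, most translation slows while that of ATF4 mRNA rises, and ATF4 then switches on genes for amino acid supply, redox balance and cell fate. In pancreatic adenocarcinoma, as in other fast-growing tumours, the same programme feeds the synthesis of serine and asparagine. Here 10 genes of it were followed, taken by their gene symbols out of 15221 genes measured. ATF4, DDIT3 (also called CHOP) and ATF3 are the transcription factors, CHAC1, TRIB3 and SESN2 are stress effectors, and ASNS, PSAT1, PHGDH and SLC7A11 make or import amino acids. All 10 passed the filter on low counts, which kept 15101 genes.

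The libraries were 2 of PANC-1, a human pancreatic adenocarcinoma cell line, and 2 of PZT-2, a single clone derived from it. PZT-2 carries lentiviral short hairpin RNAs under the U6 promoter against both genes of the histone variant H2A.Z, H2AFZ and H2AFV, and had been selected with puromycin. PANC-1 was wild type and not transduced, so the knockdown, the vector, the selection and the clone cannot be told apart. The study's scrambled control line was not analysed here. The study calls the 2 libraries of a line biological replicates, the labels do not say how the cultures behind them were kept apart, and the p-values measure the spread between these libraries. With 2 libraries against 2, an exact two-sided permutation test of a single gene cannot go below 0.333, so tests were read from a model over all genes.

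The libraries held an estimated 12861478 to 15717576 pseudoaligned read pairs over the listed transcripts, both extremes being PANC-1. These totals rest on undoing a scale between libraries in the deposited counts, described below. H2AFZ had 6389 and 6034 normalized counts in PANC-1 and 2212 and 2259 in PZT-2, which checks the labels, and H2AFV had 3343 and 3452 in PANC-1 and 2590 and 2719 in PZT-2. Both targets were lower in PZT-2, by log2 fold changes of -1.47 ± 0.06 (SE, edgeR adjusted p = 6.2e-05) and -0.36 ± 0.06 (adjusted p = 0.0057), the latter not called without PZT-2 replicate 1 (adjusted p = 0.060). The 6 ductal epithelial markers summed to between 3969 and 7403 length-scaled units of abundance (TPM, which sum to the same total in every library), with CDH1 at 0 counts in PZT-2 replicate 1. They were lower in PZT-2 (4058 and 3969 TPM) than in PANC-1 (7248 and 7403 TPM), and their part in the results was not tested. Of 12 markers of leukocytes, endothelium, acini and islets, 2 had values, CD14 and PECAM1, and they summed to at most 2.93 TPM.

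The PANC-1 libraries stood apart from each other in all of these 10 genes. Every one of the 10 was higher in PANC-1 replicate 1 than in PANC-1 replicate 2, by 1.55- to 4.04-fold. Between the PZT-2 libraries the ratio of replicate 1 to replicate 2 ran from 0.918 to 1.24. Among the 10052 genes whose mean normalized count was 100 or more, the log2 ratio between the PANC-1 libraries had a median of 0.00 and an SD of 0.23, and 95% of genes lay below 0.30. The 10 genes had a median of 0.96, and all 10 were among the 100 genes with the largest ratio, from ATF3 in place 3 to PSAT1 in place 80. Estimated depth differed between the same libraries (12861478 against 15717576 read pairs), and its part in the difference was not tested.

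ATF4 binds a short composite element, which joins parts of a C/EBP site and an ATF site and is often written TGATGNAA. This element was searched, on both strands, in RefSeq promoters of build GRCh38.p14 that run from 250 bases before to 50 bases after each start. Promoters were found for 9 of the 10 genes, SLC7A11 being the exception, 15 in all because some genes have several starts, and 3 of the 15, each of another gene, held a match. Of all 35116 promoters, 3.62% held one. All 10 genes differed between the PANC-1 libraries, and whether the element had a part in that was not tested. The 3 stretches are shown with the match in capitals, 5′ to 3′ on the strand of the gene:

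ASNS, chr7:97872458-97872487, minus strand, match starting 68 bases before the start: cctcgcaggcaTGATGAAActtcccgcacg
ATF3, chr1:212565205-212565234, plus strand, match starting 191 bases before the start: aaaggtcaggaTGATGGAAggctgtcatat
CHAC1, chr15:40953251-40953280, plus strand, match starting 209 bases before the start: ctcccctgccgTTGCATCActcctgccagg

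In CHAC1 the element reads on the opposite strand, as TTNCATCA, and has the stricter form TTGCATCA, which 0.866% of all promoters held on either strand. A match describes the letters in these windows and does not show binding.

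ATF4 itself was the most abundant of the 10 in PZT-2, at 427 and 441 TPM, and in PANC-1 it stood at 346 and 215 TPM. In normalized counts it had 3645 and 2206 in PANC-1 and 4255 and 4412 in PZT-2. Both PZT-2 libraries were above both PANC-1 libraries, and the PANC-1 libraries were farther apart than the nearer of them was from PZT-2. The log2 fold change was 0.57 ± 0.21 (SE, edgeR adjusted p = 0.085), so the difference did not pass the threshold of 0.05. ATF4 was the only one of the 10 with an unadjusted edgeR p under 0.05, which 40.6% of all genes had. Nearly all its reads were assigned to 1 of its 2 listed transcripts, which took 95.1% to 97.3% in every library.

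DDIT3, a bZIP factor that ATF4 induces and that favours cell death under lasting stress, had 793 and 412 normalized counts in PANC-1 and 673 and 731 in PZT-2. The PZT-2 libraries fell between the PANC-1 libraries. The log2 fold change was 0.23 ± 0.27 (SE, edgeR adjusted p = 0.57). The gene overlaps MARS1, which had 7266 and 5583 normalized counts in PANC-1 and 4707 and 4769 in PZT-2, and since the strand setting of the counting is not given in the sources used here, reads from the shared stretch cannot be assigned with certainty.

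ATF3, a stress-induced factor of the same family that can repress as well as activate, had the largest gap of the 10 between replicates. It had 525 normalized counts in PANC-1 replicate 1 and 130 in PANC-1 replicate 2, a ratio of 4.04, against 381 and 415 in PZT-2. Both PZT-2 libraries lay inside that gap, and the log2 fold change of 0.32 had an SE of 0.53 (edgeR adjusted p = 0.70).

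**Figure D1:**
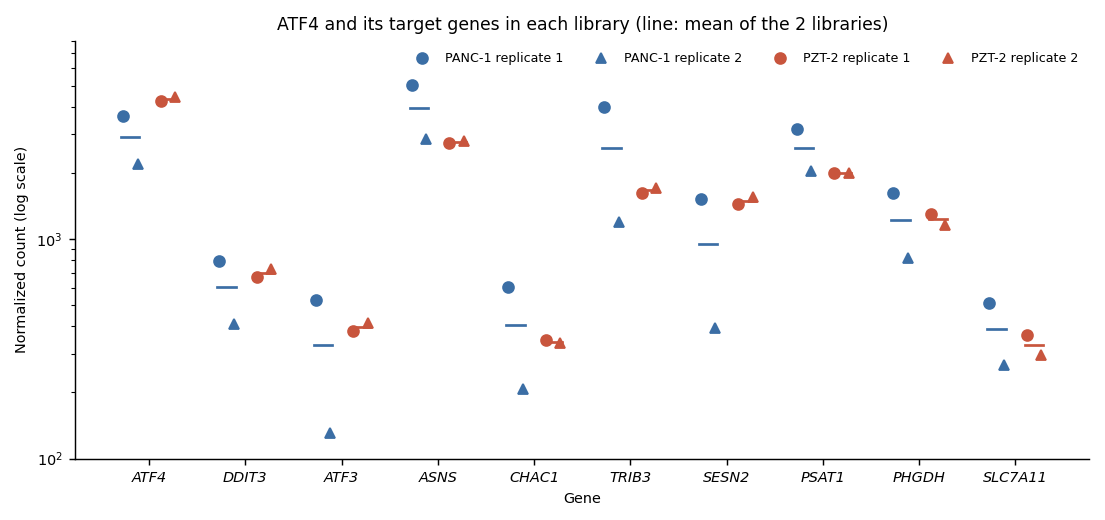
Normalized counts on a log axis of the 10 genes in each library, PANC-1 in blue and PZT-2 in red, with circles for replicate 1, triangles for replicate 2 and a line at the mean of each pair. The blue circle is above the blue triangle in all 10 genes, and the red points lie between them in 6.

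The stress effectors showed the same picture. TRIB3, a pseudokinase that dampens AKT and ATF4 activity, had 4009 and 1190 normalized counts in PANC-1 and 1626 and 1702 in PZT-2. SESN2, a leucine-sensing brake on mTORC1, had 1513 and 391 in PANC-1 and 1438 and 1549 in PZT-2. CHAC1, which degrades glutathione, had 607 and 208 in PANC-1 and 346 and 336 in PZT-2. In TRIB3 and CHAC1 the PZT-2 libraries lay between the PANC-1 libraries, and in SESN2 they lay on either side of PANC-1 replicate 1 and far above PANC-1 replicate 2. The PANC-1 ratios were 3.37 for TRIB3, 3.87 for SESN2 and 2.92 for CHAC1, while PZT-2 replicate 1 was 0.955, 0.929 and 1.03 times PZT-2 replicate 2. Log2 fold changes were -0.64 ± 0.48 for TRIB3 (edgeR adjusted p = 0.38), 0.67 ± 0.51 for SESN2 (adjusted p = 0.38) and -0.23 ± 0.43 for CHAC1 (adjusted p = 0.74).

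Of the amino acid genes, ASNS and PSAT1 were those whose PZT-2 libraries were both below both PANC-1 libraries. ASNS, which makes asparagine from aspartate and glutamine, had 5040 and 2862 normalized counts in PANC-1 and 2729 and 2800 in PZT-2. PSAT1, the aminotransferase of the serine pathway, had 3168 and 2040 in PANC-1 and 2004 and 2002 in PZT-2. In both genes the PZT-2 libraries were within a few percent of PANC-1 replicate 2, and PANC-1 replicate 1 was the library that differed. The log2 fold changes were -0.51 ± 0.23 for ASNS (edgeR adjusted p = 0.15) and -0.37 ± 0.19 for PSAT1 (adjusted p = 0.18).

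PHGDH, which commits 3-phosphoglycerate to serine synthesis, had 1615 and 816 normalized counts in PANC-1 and 1298 and 1158 in PZT-2. Its group means, 1215 ± 565 in PANC-1 and 1228 ± 99.3 in PZT-2 (SD, n = 2), were close, with a log2 fold change of 0.03 ± 0.28 (edgeR adjusted p = 0.96). SLC7A11, the cystine importer xCT, had 510 and 267 in PANC-1 and 365 and 295 in PZT-2, with a log2 fold change of -0.22 ± 0.29 (adjusted p = 0.62). In both genes the PZT-2 libraries lay between the PANC-1 libraries. SLC7A11 was the least abundant of the 10 per length, at 3.56 to 6.62 TPM.

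The list as a whole gave 0 of 10 genes called in either direction by edgeR at an adjusted p under 0.05, against 28.4% of all 15101 genes (14.7% higher and 13.7% lower in PZT-2). DESeq2 also called 0 of the 10, against 21.3% of all genes. The median log2 fold change of the 10 was -0.10, with 5 above 0 and 5 below, beside 0.00 over all genes. PZT-2 was above both PANC-1 libraries in 1 gene and below both in 2, so 3 of 10 did not overlap, where 66.3% of all genes did not. The standard errors of the 10 log2 fold changes ran from 0.19 to 0.53 with a median of 0.28, against a median of 0.09 over the genes whose mean normalized count was 100 or more. A missed threshold at such errors does not show that the cell lines had equal levels. The 10 genes lie on chromosomes whose genes had median log2 fold changes between -0.09 and 0.24, the highest being that of CHAC1.

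Which PANC-1 library stood for the line changed the calls of all but ATF4, and the signs of all but ATF4, ASNS and PSAT1. Against PANC-1 replicate 2 alone, 7 of the 10 were called higher in PZT-2 and 0 lower, where 16.6% of all genes were called higher and 14.8% lower. SESN2 then had a log2 fold change of 1.93 ± 0.09 (SE, edgeR adjusted p = 1.8e-07), ATF3 of 1.61 ± 0.14 (adjusted p = 1.4e-05) and ATF4 of 0.97 ± 0.06 (adjusted p = 1.3e-06). DDIT3, CHAC1, TRIB3 and PHGDH were also called higher, by 0.76, 0.71, 0.48 and 0.58, while ASNS (-0.06), PSAT1 (-0.03) and SLC7A11 (0.30) were not called.

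Against PANC-1 replicate 1 alone, 7 of the 10 were called lower and 1 higher, where 15.2% of all genes were called lower and 16.2% higher. TRIB3 then had a log2 fold change of -1.28 ± 0.06 (SE, edgeR adjusted p = 1.3e-07), ASNS of -0.87 ± 0.06 (adjusted p = 1.6e-06) and PSAT1 of -0.67 ± 0.06 (adjusted p = 1.2e-05). CHAC1, SLC7A11, ATF3 and PHGDH were called lower by -0.84, -0.64, -0.41 and -0.40. ATF3, CHAC1, TRIB3 and PHGDH were thus called in opposite directions by these choices. ATF4 was the 1 gene called higher against either library, at 0.24 ± 0.06 here (adjusted p = 0.0083), while DDIT3 (-0.18) and SESN2 (-0.03) were not called. In these fits the lone PANC-1 library is assumed to vary like the PZT-2 pair, whose spread in these genes was the smaller. Leaving out either PZT-2 library called 0 of the 10, where 15.6% and 12.6% of all genes were called.

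**Figure D2:**
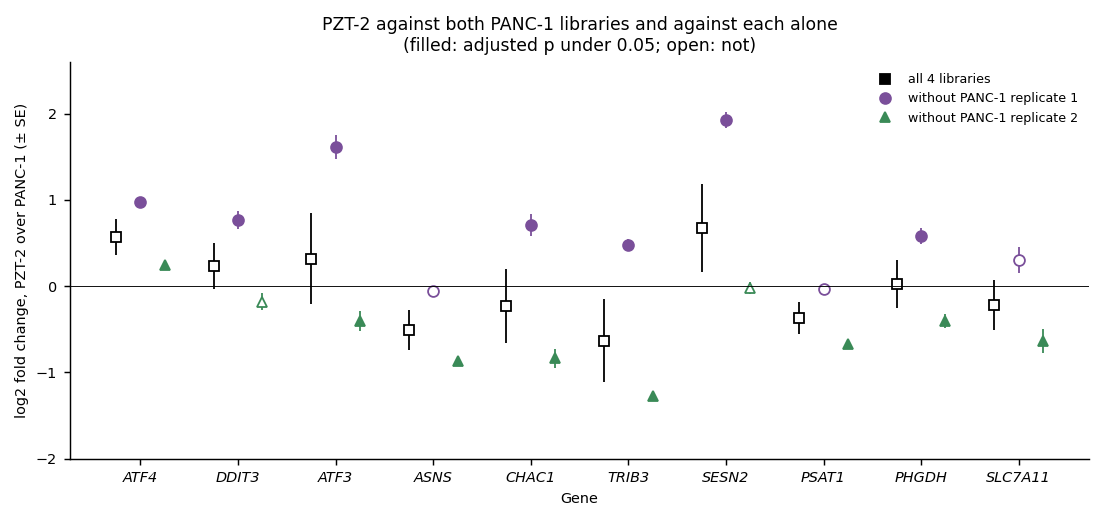
Log2 fold change of PZT-2 over PANC-1 ± SE for the 10 genes with all 4 libraries (squares), without PANC-1 replicate 1 (circles) and without PANC-1 replicate 2 (triangles), filled where the edgeR adjusted p was under 0.05. All squares are open, the circles reach 1.93 at SESN2, and the triangles reach -1.28 at TRIB3.

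The genes around ATF4 were read from lists of the pathway. Some genes stand on more than 1 list, so the shares of the lists are not separate results. Counted once each, 38 of 178 genes were called higher and 31 lower (38.8%). Of these 178, 163 had a mean normalized count of 100 or more, against 10052 of all 15101 genes. The 28.4% of all genes is not matched for that. Of the 41 other ATF4 targets tested, 3 were called higher and 6 lower (22.0%, beside 28.4% of all genes), with a median log2 fold change of -0.16. They shared the gap between the PANC-1 libraries: of the 38 whose mean normalized count was 100 or more, 37 were higher in PANC-1 replicate 1, with a median log2 ratio of 0.48 and 12 among the 100 largest. Without PANC-1 replicate 1 the list had 15 genes called higher and 7 lower, and without PANC-1 replicate 2 it had 4 higher and 25 lower. Without PZT-2 replicate 2 it had 2 lower. Of the targets called with all libraries, NDRG1, a growth-arrest and hypoxia gene, rose most, from 178 and 168 normalized counts in PANC-1 to 1368 and 1431 in PZT-2 (log2 fold change 3.02 ± 0.08, edgeR adjusted p = 4.1e-05). GADD45A, a growth-arrest gene, rose by 0.92 ± 0.13 (adjusted p = 0.0034). ATF5, itself a bZIP factor under the same translational control, fell from 2767 and 2508 to 1453 and 1466 (log2 fold change -0.85 ± 0.07, adjusted p = 5.9e-04). PYCR1, the last enzyme of proline synthesis, fell by 0.61, and SLC7A5, the large neutral amino acid transporter, fell by 0.57 on the log2 scale, the latter not called without PZT-2 replicate 2. The PANC-1 log2 ratios of these genes were 0.08 for NDRG1, 0.34 for GADD45A, 0.14 for ATF5, 0.32 for PYCR1 and 0.32 for SLC7A5. TNFRSF10B, the other target called higher (0.62 ± 0.18, edgeR adjusted p = 0.045), had a ratio of 0.63 and was not called by DESeq2. A wide gap works against a call, so the ratios of called genes do not stand for the list.

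DDIT4, NUPR1 and GDF15, chosen after their values were seen, had the largest PANC-1 gaps of that list among genes whose mean normalized count was 100 or more. DDIT4, an inhibitor of mTORC1, had 2913 and 895 normalized counts in PANC-1 and 2608 and 2362 in PZT-2. NUPR1, a stress-induced chromatin protein, had 558 and 192 in PANC-1 and 315 and 340 in PZT-2. GDF15, a secreted stress hormone, had 3044 and 1153 in PANC-1 and 1975 and 2075 in PZT-2. In all 3 the PZT-2 libraries lay between the PANC-1 libraries. Being picked for wide gaps makes that position likely, and its share over all genes is not given here.

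**Figure D3:**
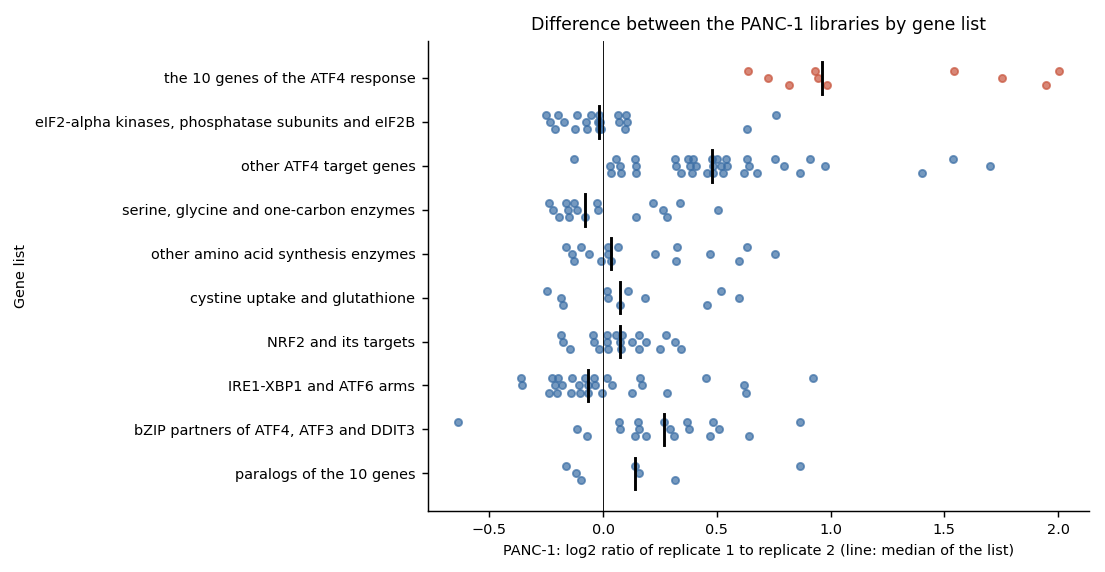
Log2 ratio of PANC-1 replicate 1 to replicate 2 for each gene whose mean normalized count was 100 or more, by gene list, with a line at the median of each list. The 10 genes have a median of 0.96 and the other ATF4 targets of 0.48, and the medians of the remaining 8 lists lie between -0.08 and 0.27.

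Upstream of ATF4, 7 of 22 genes for eIF2-alpha kinases, phosphatase subunits and eIF2B were called higher and 4 lower. Together they were 50% of the list, beside 28.4% of all genes. Among the kinases, EIF2AK3 (PERK, the sensor of unfolded protein in the endoplasmic reticulum) had 163 and 105 normalized counts in PANC-1 and 202 and 229 in PZT-2, with a log2 fold change of 0.70 ± 0.21 at the edge of the threshold (edgeR adjusted p = 0.050). EIF2AK4 (GCN2, the sensor of uncharged tRNA) rose by 0.34 ± 0.09 (adjusted p = 0.032), EIF2AK1 (HRI, the heme sensor) fell by 0.26 on the log2 scale (adjusted p = 0.022), and EIF2AK2 (PKR) had 0.18 ± 0.08 (adjusted p = 0.15). PPP1R15A (GADD34), the inducible phosphatase subunit that ends the response, had 976 and 576 in PANC-1 and 1257 and 1338 in PZT-2. It rose by 0.75 ± 0.22 (adjusted p = 0.042), while its constitutive relative PPP1R15B had 0.01 ± 0.06. DESeq2 called neither EIF2AK3 nor PPP1R15A, and both shared the PANC-1 gap, with log2 ratios of 0.63 and 0.76. Of the eIF2B subunits, EIF2B4 rose by 0.62 ± 0.07 (adjusted p = 0.0018) and EIF2B2 fell by 0.41 on the log2 scale (adjusted p = 0.010). Without either PZT-2 library the list had 2 genes called higher and 1 lower, and EIF2AK1, EIF2AK3, EIF2AK4, PPP1R15A and EIF2B2 were not called. EIF2AK3 was not called without PANC-1 replicate 2 either.

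**Figure D4:**
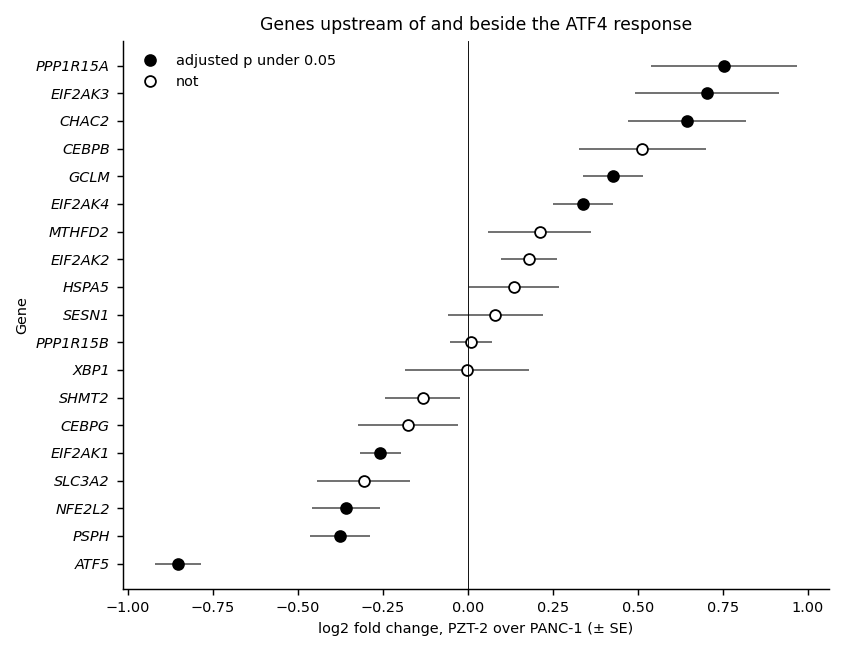
Log2 fold change of PZT-2 over PANC-1 ± SE for 19 genes upstream of and beside the 10, filled where the edgeR adjusted p was under 0.05. PPP1R15A is highest at 0.75 and ATF5 lowest at -0.85. SESN3, with fewer than 12 normalized counts in every library, is left out.

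Around PHGDH and PSAT1, 3 of 19 enzymes of serine, glycine and folate metabolism were called higher and 3 lower. The share called was 31.6%, near the 28.4% of all genes, and the median PANC-1 log2 ratio of the list was -0.08. PSPH, which performs the last step of serine synthesis after PHGDH and PSAT1, had 1441 and 1238 normalized counts in PANC-1 and 1004 and 1057 in PZT-2. It was the serine synthesis gene that passed the test, with a log2 fold change of -0.38 ± 0.09 (edgeR adjusted p = 0.022), a call that was lost without either PZT-2 library. SHMT2 (-0.13 ± 0.11) and MTHFD2 (0.21 ± 0.15), the mitochondrial enzymes that use serine as a carbon donor, were not called, and their PANC-1 log2 ratios were 0.34 and 0.51. The list had 5 genes called higher without PANC-1 replicate 1, 5 lower without PANC-1 replicate 2, 0 higher and 1 lower without PZT-2 replicate 1, and 0 in both directions without PZT-2 replicate 2. Among enzymes that make other amino acids, 0 of 20 were called higher (2 without PANC-1 replicate 1) and 6 lower. With all 4 libraries the share called was 30%, near the 28.4% of all genes. Of the enzymes whose mean normalized count was 100 or more, GLUL, glutamine synthetase, had the largest decrease. It went from 551 and 544 in PANC-1 to 52.3 and 43.5 in PZT-2, with a log2 fold change of -3.51 ± 0.13 (edgeR adjusted p = 6.0e-05).

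Around SLC7A11 and CHAC1, 6 of 14 genes of cystine uptake and glutathione were called higher and 1 lower. Together they were 50% of the list, beside 28.4% of all genes, and the median log2 fold change of the list was 0.39. TXNRD1, thioredoxin reductase, rose from 6406 and 6330 normalized counts in PANC-1 to 13200 and 13445 in PZT-2, with a log2 fold change of 1.06 ± 0.04 (edgeR adjusted p = 8.6e-05). GCLC and GCLM, the catalytic and modifier subunits of the first enzyme of glutathione synthesis, rose by 0.98 ± 0.08 (adjusted p = 7.0e-04) and 0.43 ± 0.09 (adjusted p = 0.014), and GPX4, the lipid peroxide reductase, fell by 0.58 on the log2 scale (adjusted p = 0.0025). SLC3A2, the heavy chain that carries SLC7A11 to the membrane, had 5311 and 3865 in PANC-1 and 3709 and 3701 in PZT-2 and was not called (-0.31 ± 0.14, adjusted p = 0.15). CHAC2, the constitutive relative of CHAC1, rose by 0.64 ± 0.17 (adjusted p = 0.036) from 69.8 and 68.7 to 98.6 and 118, and it was not called when any single library was left out. Without PZT-2 replicate 2 the list had 2 genes called higher, GCLM not among them, and without PANC-1 replicate 2 it had 4 lower.

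NRF2, which shares SLC7A11 and glutathione genes with ATF4, had 16 of 22 genes of its list called, 10 higher and 6 lower (72.7%, beside 28.4% of all genes). NFE2L2, which encodes NRF2, fell by 0.36 on the log2 scale (edgeR adjusted p = 0.039). OSGIN1 rose by 1.61 ± 0.14 (adjusted p = 7.5e-04), while PGD, an enzyme of the pentose phosphate pathway, fell by 0.49 on the log2 scale (adjusted p = 0.0022). The median PANC-1 log2 ratio of the list was 0.07. NFE2L2 was not called without PANC-1 replicate 1 or without PZT-2 replicate 2, and the list had 3 genes called lower without either PZT-2 library.

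Of 28 genes of the other arms of the unfolded protein response, IRE1-XBP1 and ATF6, 6 were called higher and 3 lower. The share called was 32.1%, near the 28.4% of all genes. HSPA5 (BiP), the chaperone both arms induce, had 12022 and 8781 normalized counts in PANC-1 and 11304 and 11550 in PZT-2 (0.14 ± 0.13, edgeR adjusted p = 0.50). XBP1 had 1380 and 898 in PANC-1 and 1095 and 1167 in PZT-2 (-0.003 ± 0.18, adjusted p = 0.996). Both had their PZT-2 libraries between those of PANC-1. EDEM1, which helps clear misfolded glycoproteins, rose by 1.31 ± 0.08 (adjusted p = 3.1e-04), and ERN1 (IRE1) rose by 0.93 ± 0.19 (adjusted p = 0.013), a call that was lost without either PZT-2 library. The list had 5 genes called lower without PANC-1 replicate 2 and 0 without either PZT-2 library.

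Of 22 bZIP partners of ATF4, ATF3 and DDIT3, 6 were called higher and 4 lower (45.5%, beside 28.4% of all genes). CEBPD rose by 1.58 ± 0.16 (edgeR adjusted p = 0.0012), from 141 and 134 normalized counts in PANC-1 to 353 and 465 in PZT-2, and JUND fell by 0.97 on the log2 scale (adjusted p = 0.0063). CEBPB had 1168 and 748 in PANC-1 and 1311 and 1409 in PZT-2, above both PANC-1 libraries as ATF4 was, but was not called (0.51 ± 0.19, adjusted p = 0.087), and CEBPG had -0.18 ± 0.15. Without PZT-2 replicate 2 the list had 2 genes called in each direction. Of 10 tested paralogs of the 10 genes, 2 were called higher (1 without PANC-1 replicate 1 or either PZT-2 library) and 3 lower. With all 4 libraries the share of paralogs called was 50%, beside 28.4% of all genes. TRIB1 rose by 0.59 ± 0.09 and TRIB2 fell by 1.05 on the log2 scale (edgeR adjusted p = 0.0054 and 0.0012), and SESN1 had 0.08 ± 0.14.

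The 10 genes had 24 listed transcripts, of which edgeR called 0 and DESeq2 0, where edgeR called 0.148% and DESeq2 14.5% of all 30403 transcripts tested. Of the 24, 1 had an unadjusted p under 0.05, a minor DDIT3 transcript with 0 and 0 normalized counts in PANC-1 and 25.2 and 6.92 in PZT-2. The main ASNS transcript held 84.0% to 90.6% of the gene's reads, the main PSAT1 transcript 94.0% to 96.3% and the main ATF3 transcript 86.8% to 93.7%. TRIB3 was spread over its transcripts, the largest holding 49.6% to 54.5%. The shares of the main transcripts moved by less than the gene totals did between the PANC-1 libraries. ASNS also overlaps a readthrough RNA, CZ1P-ASNS, with 6.33 to 23.6 normalized counts, and RefSeq names pseudogenes of ATF4, ASNS and PSAT1, whose reads could be counted with the parent genes, so these 3 levels are uncertain to that extent.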

How the data were processed

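RNA from 2 PANC-1 and 2 PZT-2 libraries was sequenced by the authors as stranded paired reads of 76 bases. Reads were trimmed with Trim Galore 0.4.1 and quantified with kallisto 0.43.0, and the authors tested differential expression with sleuth 0.29.0. The processing notes name hg19. The estimated counts deposited by the authors are per transcript and, judging by their low values, scaled between libraries, a step not given in the sources used here. The scale was undone by the factor (0.862 to 1.07) under which counts of transcripts that are alone in their gene are most often whole, within 0.01 (40.8% to 42.7% of values after, 0.915% to 2.39% before). TPM were recomputed from these counts and the deposited effective lengths, to a total of 1000000 over the listed transcripts. The authors' own fold changes and p-values were not used, and the tables hold 0 columns of other samples.

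Counts of 31077 transcripts were summed to 15221 genes by the table's symbol (27049 transcripts) or by RefSeq accession (3925), rounded, and tested with edgeR 4.0.16 (quasi-likelihood, TMM, R 4.3.3) on 15101 genes that reached 5 counts in 2 or more libraries. The 103 unnamed transcripts, 0.0466% of counts, were left out. P-values were adjusted over all genes by Benjamini-Hochberg, with a threshold of 0.05. The test gives no standard error. The SE printed with edgeR values is the absolute log2 fold change divided by the square root of the test's F statistic. Log2 ratios between replicate libraries used normalized counts plus 1, and fold ratios used normalized counts with nothing added. DESeq2 1.42.0 and limma 3.58.1 were alternatives. The 10 genes, the pathway lists and the tests were chosen with earlier results of these data known. Named besides the 10 and the knockdown targets were 20 genes of fixed roles and, per list and direction, the up to 3 called genes with the largest log2 fold change, a mean normalized count of at least 100 and libraries that did not overlap. Some of the genes this rule names are not reported here. Depth estimated from the counts after this step was 12861478 to 15717576 read pairs a library, and low counts are the least precise.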

Additional observations from a re-analysis of the deposited data

How the results depend on the processing

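With all 4 libraries, 0 of the 10 genes were called under every other setting run: RLE size factors, DESeq2, no filter or 10 counts in every library, limma-trend on log2(TPM + 1) or log2(TPM + 0.1), a 2-fold minimum, the counts as deposited, the most abundant transcript and length-scaled counts. Over all genes, RLE called 4296, DESeq2 3220, no filter 4277 and the stricter filter 4569. Limma-trend called 3816 and 3711, the counts as deposited 4131 and length-scaled counts 4255. The 2-fold minimum called 837 and the most abundant transcript 2126. At these last 2 lower totals a count of 0 does not set the 10 genes apart. Of the transcripts of the 10 genes, 0 were called with DESeq2, beside 14.5% of all transcripts, and 0 with the replicate block. The share of all transcripts with the replicate block is not given here. Without the block edgeR called 0.148% of all transcripts, so a count of 0 does not set these transcripts apart. Leaving out 1 library at a time gave 0 to 8 of the 10 called, 0 to 7 higher and 0 to 7 lower; it gave 1864 to 4674 of all genes (4292 with all 4) and 32 to 100 of 178 pathway genes (69). A 2-fold minimum left 837 genes and 9 pathway genes, and the most abundant transcript 2126 and 35. The stricter element TTGCATCA was in 1 gene in place of 3.

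The libraries of a number were not shown to be pairs: deviations of same-numbered libraries correlated at -0.03 over 10052 genes. With the replicate block 3694 genes, 66 pathway genes and 0 of the 10 were called.

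Log2 fold changes that changed sign when 1 library was left out ran from -0.18 to 0.76 (DDIT3), -0.41 to 1.61 (ATF3), -0.84 to 0.71 (CHAC1), -1.28 to 0.48 (TRIB3), -0.027 to 1.93 (SESN2), -0.40 to 0.58 (PHGDH), -0.64 to 0.30 (SLC7A11), -0.0091 to 0.028 (PPP1R15B), -0.41 to 0.075 (CEBPG), -0.30 to 0.038 (SHMT2), -0.031 to 0.48 (MTHFD2), -0.081 to 0.38 (HSPA5), -0.29 to 0.33 (XBP1), -0.0088 to 0.15 (SESN1) and -0.47 to 6.05 (SESN3, 0 counts in PANC-1 replicate 1, so the upper value depends on the prior count). XBP1 was 0.077 and 0.078 with limma-trend at pseudocounts of 1 and 0.1, 0.020 with the replicate block and 0.011 by its most abundant transcript, which gave SESN1 -0.45. The cause was not tested. Groups of 2 libraries leave wide errors for these 10 genes.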
